A study of Homo sapiens with 10 samples.

Results

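The S100 genes encode small calcium-binding proteins, and 10 of them were examined: S100A4, S100A6, S100A8, S100A9, S100A10, S100A11, S100A12, S100A13, S100B and S100P. They were found as every probe set that the platform annotation assigns to one of these symbols. This gave 11 probe sets for 9 genes, of 12558 probe sets tested, with 2 probe sets each for S100A4 and S100A12. S100A6, which encodes calcyclin, was assigned no probe set and is not analysed here. The signals come from 10 Affymetrix arrays, 5 of a cyclophosphamide-resistant subline of a human chronic myeloid leukaemia (CML) cell line and 5 of the sensitive line. Cyclophosphamide is an alkylating drug, and CML is driven by the BCR-ABL fusion kinase. Both groups were grown in culture medium. The labels do not say which line it is, how resistance was raised or whether the subline is 1 clone. Nor do they say that the replicates of a group were separate cultures, and the spread behind each p-value may therefore be only technical.

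Most S100 proteins are dimers in which each chain carries a pair of EF-hands, the helix-loop-helix motif that holds a calcium ion. In most members, binding of calcium exposes a surface to which partner proteins attach, among them annexins, myosins and other parts of the cytoskeleton. Several members are also released from cells without a signal peptide and then act on receptors such as AGER (also called RAGE) and TLR4. In blood, S100A8, S100A9 and S100A12 are abundant in neutrophils and monocytes, where S100A8 and S100A9 form the heterodimer calprotectin. Most of the family lies in a cluster on the long arm of chromosome 1, whereas S100P is on chromosome 4 and S100B on chromosome 21.

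The stretches before the transcription starts are shown for the members that changed, S100A4, S100A13 and S100P, and for S100A10, which was bright and was not called. Each is the 250 bases before a start in RefSeq (GRCh38.p14), read 5′ to 3′ on the strand of the gene. Windows were found for 9 of the 10 genes, all but S100B. Capitals mark matches, on either strand, to any of 8 patterns: the TATA box as TATAAA, the GC box as GGGCGG, the site of KLF factors as CCACCC, the C/EBP pattern as TTNNGNAA, the AP-1 site as TGANTCA, the STAT pattern as TTCNNNGAA, the GATA site as AGATAA and the E-box as CACGTG. The GC box and the KLF site can overlap. The S100A4 window lies at chr1:153545807-153546056 on the minus strand, the S100A13 window at chr1:153627506-153627755 on the minus strand, the S100P window at chr4:6693628-6693877 on the plus strand and the S100A10 window at chr1:151993860-151994109 on the minus strand.
S100A4: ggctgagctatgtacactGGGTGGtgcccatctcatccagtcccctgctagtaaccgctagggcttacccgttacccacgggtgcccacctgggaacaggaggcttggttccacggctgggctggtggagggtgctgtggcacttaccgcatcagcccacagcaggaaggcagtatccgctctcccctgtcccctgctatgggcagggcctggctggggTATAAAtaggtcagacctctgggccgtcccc
S100A13: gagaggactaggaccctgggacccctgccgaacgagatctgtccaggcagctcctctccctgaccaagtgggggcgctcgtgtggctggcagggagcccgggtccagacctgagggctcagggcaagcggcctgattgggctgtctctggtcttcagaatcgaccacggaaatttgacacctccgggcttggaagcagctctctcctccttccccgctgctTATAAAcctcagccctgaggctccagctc
S100P: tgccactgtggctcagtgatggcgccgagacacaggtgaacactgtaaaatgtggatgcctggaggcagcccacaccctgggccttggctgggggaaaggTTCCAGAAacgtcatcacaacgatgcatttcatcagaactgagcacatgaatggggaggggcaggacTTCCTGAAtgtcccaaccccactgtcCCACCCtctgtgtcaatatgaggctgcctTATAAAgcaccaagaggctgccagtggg
S100A10: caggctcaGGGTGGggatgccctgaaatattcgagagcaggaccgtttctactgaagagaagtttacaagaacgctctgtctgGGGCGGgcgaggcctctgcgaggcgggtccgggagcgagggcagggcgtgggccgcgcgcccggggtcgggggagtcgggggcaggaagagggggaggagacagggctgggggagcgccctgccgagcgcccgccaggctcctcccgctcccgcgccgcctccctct

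A TATAAA stands 31 bases before the start of S100A4, 29 bases before this start of S100A13 and 28 bases before that of S100P. S100A13 has 3 windows, of which the one with TATAAA is shown. The other 2 hold none, and they have 8 and 15 CpG dinucleotides and 0 and 1 GC boxes. S100A10 and S100A11 hold none either, and each has 1 GC box. The pattern TATAAA occurs in 10.7% of the 35116 windows of all genes, GGGCGG in 42.6%, CCACCC in 31.3% and TTNNGNAA in 33.2%. S100A4 has 7 CpG dinucleotides in its window, S100A13 has 10 in the one shown and S100P has 4, against 24 in S100A10 and 15 in S100A11. S100A8, S100A9 and S100A12, which were not called, are low too, with 2 in each S100A8 window, 4 in S100A9 and 1 in S100A12. The median over all windows is 11. At least 1 window each of S100A8, S100A9 and S100A12, whose genes were at the level of negative controls in both groups, also includes TATAAA. These are matches of letters in a window and were not tested as sites.

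Of the 9 S100 genes measured, S100A4 and S100A13 were higher in resistant cells, S100P was lower, and the other 6 were not called. The call was an adjusted p under 0.05 in limma, with Benjamini-Hochberg adjustment over the 12558 probe sets. By probe set, 2 of 11 were called higher, where 4.42% of all probe sets were, and 1 of 11 was called lower, where 2.99% were. In either direction 3 of 11 were called against 7.41% of all. The signals of the groups did not overlap in the same 3 probe sets, and in 8.5% of all. A limit of detection was set for each array at the 95th percentile of 32 control probe sets without a human target, between 319.7 and 739.8. Above it on at least 3 arrays of a group were 6 of the 11 S100 probe sets, which measure S100A4, S100A10, S100A11, S100A13 and S100P. The other 5, for S100A8, S100A9, S100A12 and S100B, were not. Among all probe sets above the limit in this way, 11.5% were called. The median log2 difference of the 11 was -0.12, beside 0.03 for all probe sets.

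**Figure D1:**
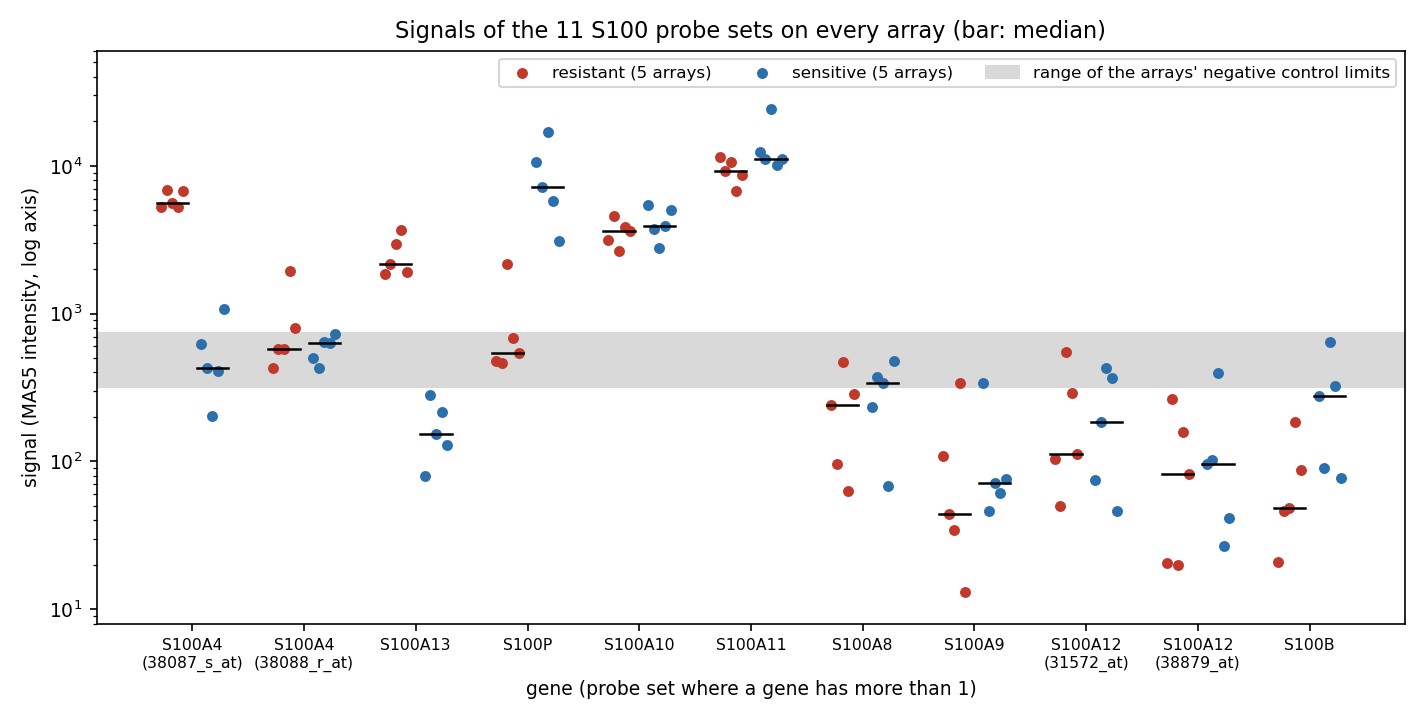
Signal of each S100 probe set on each array on a log axis, resistant arrays in red and sensitive arrays in blue, with the median of each group as a bar; the grey band spans the negative control limits of the arrays (319.7 to 739.8). S100A4 (the s set) and S100A13 are higher on all 5 resistant arrays and S100P is lower on all 5, S100A10 and S100A11 are bright in both groups, and the remaining genes lie in or under the band.

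The arrays of the groups were of like quality. Between 51.0% and 61.3% of probe sets were above the limit on resistant arrays and between 52.7% and 59.1% on sensitive arrays. GAPDH control probe sets, a check of RNA length, gave 3′ over 5′ ratios of 0.801 to 0.968 on resistant arrays and 0.833 to 0.921 on sensitive arrays. Across probe sets, which are not independent, log2 signals correlated with a Pearson r of 0.927 to 0.957 between resistant arrays, 0.925 to 0.960 between sensitive arrays and 0.883 to 0.923 between the groups. Within the sensitive group, replicates 4 and 5 stood apart from replicates 1 to 3 in some genes, picked after their values were seen. EPX, an eosinophil peroxidase, had 40734 and 38859 on sensitive replicates 4 and 5, against 4885, 3585 and 4039 on sensitive replicates 1 to 3. GATA1, an erythroid and eosinophil factor, had 3800.2 and 3650.3 on sensitive replicates 4 and 5, against 431, 510.5 and 968 on sensitive replicates 1 to 3. Over all probe sets, r was 0.925 to 0.951 between replicates of the 2 sets. It was 0.934 to 0.960 among replicates 1 to 3 and 0.9505 between replicates 4 and 5. These ranges overlap. An r over all probe sets is set mostly by the unlike levels of the genes, so it cannot decide how wide the split is. Without replicates 4 and 5, a setting chosen after the data were seen, the S100 calls were again 2 higher and 1 lower.

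S100A4, also called metastasin or FSP1, binds non-muscle myosin heavy chains and is known for its part in cell motility. In the probe set whose name ends in _s_at its signal was 5225, 6908, 5574, 5252 and 6719 on resistant arrays 1 to 5, against 619, 432, 203, 406 and 1081 on sensitive arrays 1 to 5. Every resistant array was well above every sensitive array, and 2 of the 5 sensitive arrays (replicates 1 and 5) were above their limit. The mean was 5935 ± 816 in resistant arrays and 548 ± 332 in sensitive arrays (SD, n = 5 each). The log2 difference was 3.32 (SE 0.30, adjusted p = 2.44e-05, limma), a fold of 9.97 with a 95% interval of 6.30 to 15.8 on the scale of log2(signal + 114.8), on which folds of dim probe sets are understated. An exact two-sided permutation test over the arrays gave p = 0.00794, the smallest that 5 against 5 arrays allow.

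The second probe set of S100A4, whose name ends in _r_at, did not share this rise. Its signal was 428, 572, 576, 1932.5 and 799 on resistant arrays 1 to 5, against 500.4, 428, 640.0, 630.0 and 724 on sensitive arrays 1 to 5. The groups overlapped, and resistant replicate 4 stood above the other arrays. This probe set was above the limit on 4 of the 5 resistant and 4 of the 5 sensitive arrays. Apart from resistant replicate 4, its signals lay near the limits, so that it measured S100A4 close to the background. The log2 difference was 0.32 with a 95% interval of -0.38 to 1.03 (adjusted p = 0.691, limma). In Affymetrix names an s marks probes shared by several transcripts and an r marks a set chosen under relaxed rules. The log2 ratio of the first to the second probe set was 2.80 ± 0.81 in resistant arrays and -0.20 ± 0.70 in sensitive arrays (SD, n = 5 each), a difference of 3.00 (exact two-sided permutation p = 0.00794). The probe sets therefore measured unequal changes. With the log2 signals of both averaged, S100A4 was still called higher, with a log2 difference of 1.82 (adjusted p = 0.000323, limma). The S100A4 call thus rests on 1 of 2 probe sets.

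**Figure D2:**
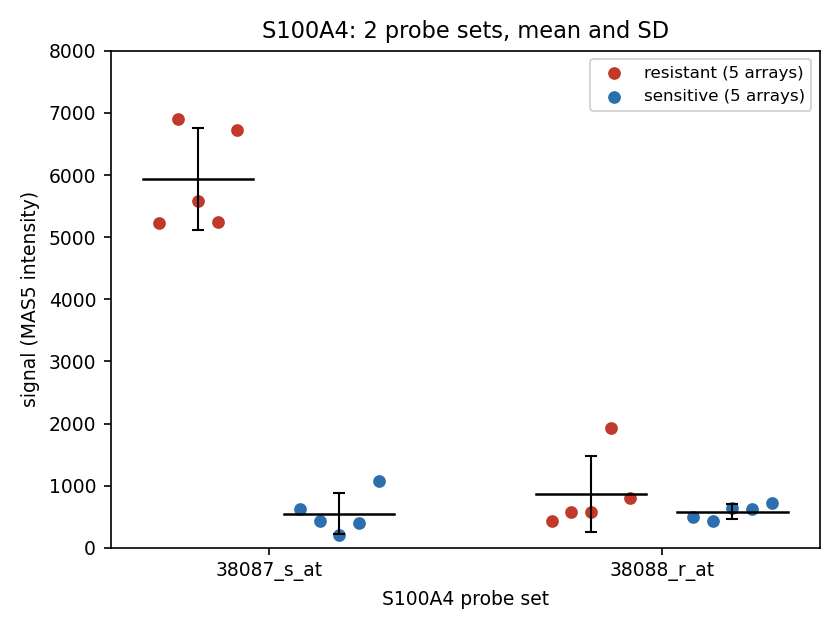
Signal of the 2 S100A4 probe sets on a linear axis, resistant arrays in red and sensitive arrays in blue, with the mean and SD of each group of 5 arrays. In the s set the means are 5935 in resistant and 548 in sensitive arrays; in the r set they are 861 in resistant and 585 in sensitive arrays, and the highest resistant array is at 1932.5.

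S100A13 is needed for the release of FGF1, a growth factor that leaves cells without a signal peptide. Its signal was 1858, 2181, 2955, 3671 and 1916 on resistant arrays 1 to 5, against 79.5, 279, 153, 217 and 129 on sensitive arrays 1 to 5. All 5 resistant arrays were above the limit and none of the 5 sensitive arrays was. The mean was 2516 ± 780 in resistant arrays and 172 ± 77.9 in sensitive arrays (SD, n = 5 each). Because every sensitive array was at or below the limit, the change is a bound, and S100A13 was at least 5.01-fold higher in resistant cells. The fitted log2 difference was 3.20 (SE 0.25, adjusted p = 7.21e-06, limma; exact two-sided permutation p = 0.00794). FGF1 itself was above the limit on none of the 10 arrays, so that no statement on its change is possible.

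S100P was first purified from placenta and binds ezrin, and it is the member of the family that fell. Its signal was 480.0, 460.2, 2160.2, 685 and 539 on resistant arrays 1 to 5, against 10551, 7225, 16924, 5792 and 3122 on sensitive arrays 1 to 5. The groups did not overlap. Resistant replicate 3 was the highest of its group, and sensitive replicates 4 and 5 were the lowest of their own. All 5 sensitive arrays and 3 of the 5 resistant arrays, replicates 1, 2 and 3, were above the limit. The mean was 865 ± 729 in resistant arrays and 8723 ± 5310.5 in sensitive arrays (SD, n = 5 each). The log2 difference was -3.19 (SE 0.47, 95% interval -4.22 to -2.16, adjusted p = 0.00111, limma; exact two-sided permutation p = 0.00794). Without resistant replicate 3 it was -3.55, and without sensitive replicates 4 and 5 together it was -3.72 (adjusted p = 0.00101, limma).

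Of 21 granulocytic marker genes measured, 11 were called lower, as S100P was, and 0 higher in resistant arrays, where, with 1 probe set a gene, 3.46% of 8226 genes were called lower, 4.94% higher and 8.4% in either direction. Their summed signal was 4465 to 8104 on resistant arrays and 226503 to 514474 on sensitive arrays, and 5 of the 21 did not exceed the limit on any of the 10 arrays. The other 10 did not pass, and 7 of these had positive differences. Among the 11, PRTN3 was at least 56.9-fold lower and MS4A3 at least 44.0-fold lower, both with no resistant array above the limit, and PRG2 had a log2 difference of -8.26 with 2 resistant arrays above it. The part of this shift in the S100P result was not tested. In bulk RNA of this kind, fewer cells of a type and less RNA per cell cannot be told apart.

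S100A10 and S100A11 are the members that bind annexins. S100A10, or p11, forms a tetramer with annexin A2 that sits under the plasma membrane and binds plasminogen. Its signal was 3169, 4579, 2662, 3853 and 3648 on resistant arrays 1 to 5, against 5390.5, 3739.5, 2767, 3886 and 5004 on sensitive arrays 1 to 5. All 10 arrays were above the limit and the groups overlapped throughout. The mean was 3582 ± 723 in resistant arrays and 4157 ± 1051 in sensitive arrays (SD, n = 5 each), and the log2 difference of -0.19 had a 95% interval of -0.68 to 0.29 (adjusted p = 0.739, limma). Changes of the size seen for S100A4, S100A13 and S100P lie outside this interval.

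S100A11 was bright on all arrays as well, at 11453, 9186, 10529, 6788 and 8675 on resistant arrays 1 to 5, against 12394, 11196, 24306, 10047 and 11124 on sensitive arrays 1 to 5. Most sensitive arrays were above most resistant arrays, but resistant replicate 1 was above sensitive replicates 2, 4 and 5, resistant replicate 3 was above sensitive replicate 4, and sensitive replicate 3 stood far above the rest. The mean was 9326 ± 1793 in resistant arrays and 13814 ± 5924 in sensitive arrays (SD, n = 5 each). The log2 difference of -0.50 (SE 0.26, 95% interval -1.06 to 0.06) was not called (adjusted p = 0.348, limma; exact two-sided permutation p = 0.0556). Without sensitive replicate 3 it was -0.28.

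**Figure D3:**
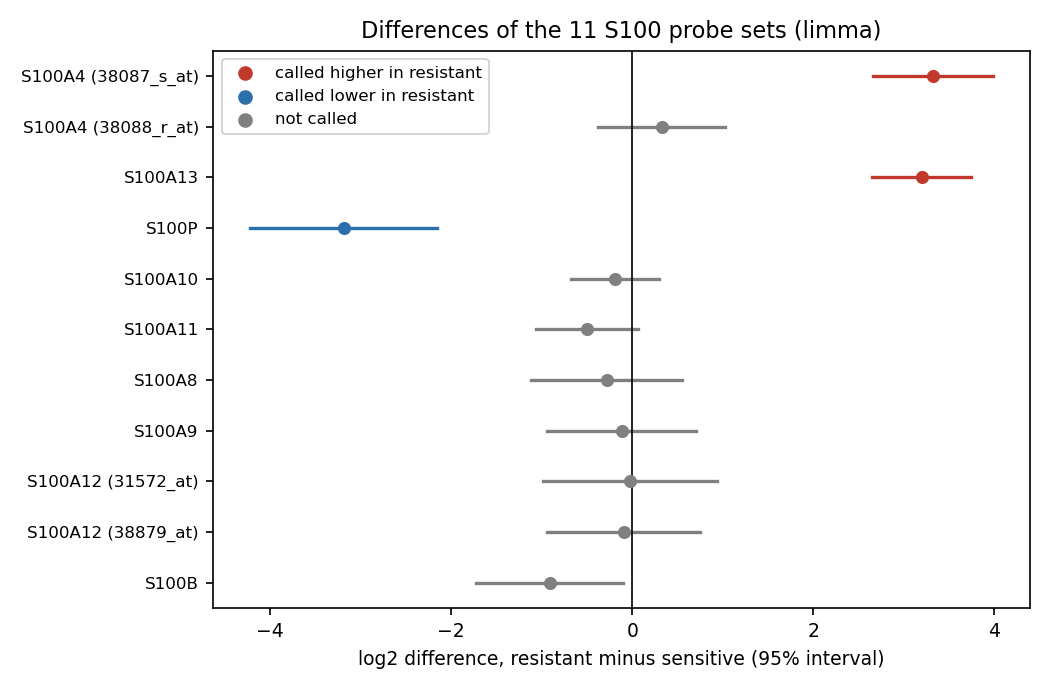
Log2 difference, resistant minus sensitive, of each S100 probe set with its 95% interval from limma; red marks probe sets called higher in resistant arrays, blue lower and grey not called. The intervals of S100A4 (the s set) and S100A13 lie above 2.6 and that of S100P below -2.1, whereas those of the not called probe sets lie within -1.73 and 1.03.

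The genes of calprotectin and its relative S100A12 were at the level of the negative controls in both groups. S100A8 had signals of 242, 96.1, 473, 62.7 and 288 on resistant arrays 1 to 5, against 235, 373, 338, 67.9 and 476 on sensitive arrays 1 to 5, and only sensitive replicate 5 was above its limit. S100A9, its partner chain, had 108, 44.3, 34.4, 338 and 13 on resistant arrays 1 to 5, against 339, 46.3, 71.4, 61.3 and 75.7 on sensitive arrays 1 to 5, all below the limit. The log2 differences were -0.28 (95% interval -1.11 to 0.55, adjusted p = 0.794, limma) for S100A8 and -0.12 (-0.94 to 0.71, adjusted p = 0.925) for S100A9. With signals this low, a difference between the groups was not detectable.

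S100A12, a ligand of AGER, was below the limit on all 10 arrays in both of its probe sets. In the probe set with a human identifier it ranged from 19.9 to 264 with a median of 81.7 on resistant arrays, and from 26.8 to 394 with a median of 95.6 on sensitive arrays (log2 difference -0.09, adjusted p = 0.943, limma). The other probe set has an Entrez identifier that is not in the human gene table used here, so its identity is uncertain. It ranged from 50.0 to 554 on resistant arrays and from 46.5 to 431 on sensitive arrays (log2 difference -0.02, adjusted p = 0.989). Of 15 other monocytic markers, 4 were called higher and 0 lower, beside 4.94% and 3.46% of all genes. The number called higher was 2 with arrays scaled to a common median, without resistant replicate 5 or without sensitive replicate 4, and 1 without sensitive replicates 4 and 5. Their summed signal was 10280 to 16255 on resistant arrays and 5169 to 6965 on sensitive arrays, and 8 of the 15 did not exceed the limit on any array. Their part in the S100 results was not tested. Among those called were LYZ, at least 2.55-fold higher, TLR2 and FCGR2A. TLR2 was called at a log2 difference of 1.44, for which 2 resistant and 0 sensitive arrays exceeded the limit. Its call was lost without sensitive replicates 4 and 5 (adjusted p = 0.0862). FCGR2A was called at a log2 difference of 1.30, in 1 of its 2 probe sets. In the summed signal it alone made up 4333 to 10022 on resistant arrays and 1695 to 4240 on sensitive arrays. The FCGR2A call was lost without resistant replicate 3 or 5 or sensitive replicate 4 or 5 (adjusted p of up to 0.0621). It was also lost with arrays scaled to a common median (0.0602) and in the fit with the replicate block (0.0807).

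S100B, best known from glial and melanocytic cells, was also near the background. Its signal was 20.8, 46.2, 48.2, 184 and 87.0 on resistant arrays 1 to 5, against 277, 90.1, 641, 324 and 76.9 on sensitive arrays 1 to 5. Only sensitive replicate 3 was above its limit, which was 640.0 on that array, and the groups overlapped. The log2 difference was -0.91 (SE 0.37, unadjusted p = 0.0303, adjusted p = 0.206, limma; exact two-sided permutation p = 0.0635), which did not pass.

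S100A4 and S100A13 lie in the same cluster, so the genes around them were read in the order of the gene table. From S100A10 to S100A1 the table lists 94 genes, and 24 of them were measured: 12 S100 genes and 12 others, most of them genes of skin barrier proteins. Among the other 12, 2 were called higher and 0 lower, beside 4.94% and 3.46% of all genes, and their median log2 difference was 0.40, beside 0.03 for all genes. Only 5 of the 12 were above the limit on at least 3 arrays of a group, and 4 were above it on no array. The median therefore rests largely on dim signals. The 2 called genes encode small proline-rich proteins of the cornified envelope. SPRR1A was at least 1.32-fold higher (log2 difference 1.07, adjusted p = 0.0261, limma), a call lost without resistant replicate 3 or 5 or sensitive replicate 1, 2 or 4 (adjusted p of up to 0.0697). SPRR1B had a log2 difference of 1.04 (adjusted p = 0.00229) with no array of either group above the limit. The S100 genes of the stretch that are not among the members, S100A1, S100A2, S100A3, S100A5 and S100A7, together with S100G of the X chromosome, were not called by limma, with 0 of 6 at an unadjusted p under 0.05. The measured genes next to S100A4 and S100A13 in the table, S100A5, S100A3, S100A2 and S100A1, had log2 differences of 0.44, -0.03, -0.27 and 0.55. Of these S100A2 was above the limit on 3 resistant and 4 sensitive arrays, S100A5 on 1 array of each group, S100A3 on 1 sensitive array and S100A1 on none. The next measured genes past the cluster, looked up after the values had been seen, were CHTOP and ILF2, at 0.35 and 0.29 (adjusted p = 0.498 and 0.418). MRFAP1L1, which follows S100P in the table, was likewise bright and not called (log2 difference 0.01, adjusted p = 0.990).

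**Figure D4:**
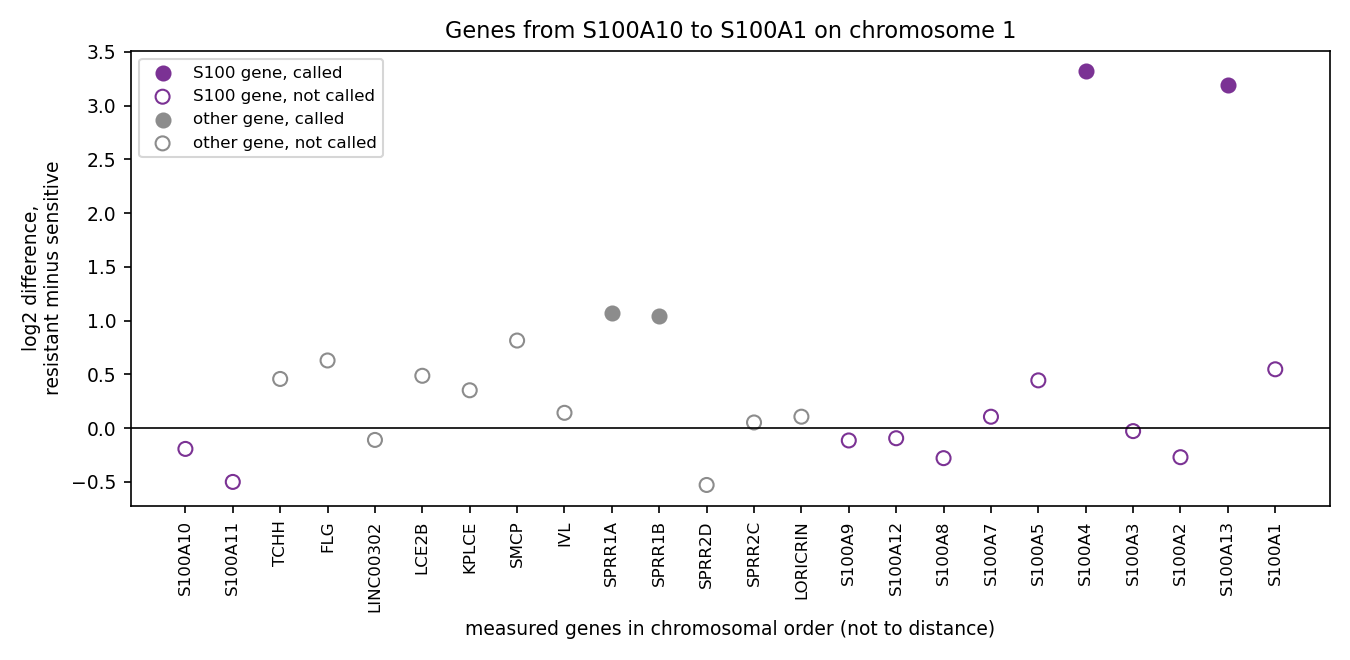
Log2 difference, resistant minus sensitive, of the 24 measured genes from S100A10 to S100A1 in chromosomal order, not drawn to distance; purple marks S100 genes, grey other genes, filled symbols called and open symbols not called. S100A4 and S100A13 stand at 3.32 and 3.20, SPRR1A and SPRR1B near 1, and the other genes between -0.53 and 0.81.

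Of 28 measured genes of intracellular S100 partners, 3 were called higher and 2 lower in resistant cells, beside 4.94% and 3.46% of all genes, and 23 were not called. NCF4 is among the 23, as the probe set that represents it was not called (log2 difference -0.59, adjusted p = 0.152, limma). It was called in 2 of its 3 probe sets, however. Their median log2 difference was -0.02. AHNAK, a giant scaffold protein that binds the complex of S100A10 and annexin A2, had signals of 2087, 1537, 2809, 1994 and 2172 on resistant arrays 1 to 5, against 108, 67.7, 268, 525 and 288 on sensitive arrays 1 to 5. No sensitive array was above the limit, and AHNAK was at least 4.29-fold higher (adjusted p = 0.000166, limma). MYH10, the heavy chain of non-muscle myosin IIB, averaged 2598 ± 464 in resistant arrays and 663 ± 478 in sensitive arrays (SD, n = 5 each; log2 difference 2.09, adjusted p = 0.0136) and was called in both of its probe sets. STK38, a kinase activated by S100B, rose by 0.94 on the log2 scale (adjusted p = 0.0214), a call in 1 of 3 probe sets that was lost without sensitive replicate 2 or 5 (adjusted p of up to 0.0590). FABP5, a fatty acid carrier that binds S100A7, averaged 1151 ± 283 in resistant arrays and 3487 ± 1197 in sensitive arrays (log2 difference -1.47, adjusted p = 0.00373). CYBA, a membrane subunit of the NADPH oxidase to which calprotectin binds in neutrophils, averaged 18508 ± 1268 in resistant arrays and 33228 ± 3301 in sensitive arrays (log2 difference -0.84, adjusted p = 0.00512).

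Other known direct partners of members were not called. They are given for their binding, outside the rule for named genes. MYH9, the heavy chain of non-muscle myosin IIA and the classical partner of S100A4, averaged 9518 ± 1656 in resistant arrays and 7940 ± 1643 in sensitive arrays (log2 difference 0.26, adjusted p = 0.580, limma). EZR, which encodes ezrin, ranged from 9232 to 11715 on resistant arrays and from 13344 to 15563 on sensitive arrays. Its groups did not overlap, but the log2 difference of -0.46 was not called (adjusted p = 0.107). CACYBP, a partner of S100A6, had a log2 difference of 0.14 (adjusted p = 0.835).

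Of 11 annexin genes, limma called 0. Without adjustment, 2 higher and 2 lower ones had a p under 0.05, and the median log2 difference of the 11 was -0.10. The number called was 1 higher, 1 lower or both under 8 of the 18 alternative settings. ANXA2, the partner of S100A10, averaged 2074 ± 414 in resistant arrays and 1793 ± 557 in sensitive arrays (log2 difference 0.22, 95% interval -0.27 to 0.71, adjusted p = 0.694). ANXA1, the partner of S100A11, had signals of 3756, 3975, 4972, 6255 and 4081 on resistant arrays 1 to 5, against 15885, 14624, 15194, 4887 and 4402 on sensitive arrays 1 to 5. Sensitive replicates 1, 2 and 3 were well above all resistant arrays and sensitive replicates 4 and 5 were among them (log2 difference -1.05, adjusted p = 0.153). Both annexins, like S100A10 and S100A11, were above the limit on all 10 arrays.

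Of 9 measured receptors and cofactors of secreted S100 proteins, 0 were called higher and 1 lower, beside 4.94% and 3.46% of all genes. BSG, which encodes basigin, a receptor of S100A9, averaged 9774 ± 1325 in resistant arrays and 15337 ± 1182 in sensitive arrays (SD, n = 5 each; log2 difference -0.65, adjusted p = 0.0311, limma). The call was lost without any 1 of 7 arrays, resistant replicates 1, 2 and 4 and sensitive replicates 1, 2, 3 and 5 (adjusted p of up to 0.0763), and in the fit with the replicate block. AGER was above the limit on 1 resistant and 2 sensitive arrays (log2 difference -0.05, adjusted p = 0.958).

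Among 32 other EF-hand genes measured, 2 were called higher and 2 lower, near the 4.94% and 3.46% of all genes, with a median log2 difference of -0.25. SPARC, a secreted matrix protein with an EF-hand pair, had signals of 3720.0, 3623, 2632, 4903 and 2626 on resistant arrays 1 to 5, against 42.3, 224, 95.1, 167 and 124 on sensitive arrays 1 to 5. No sensitive array was above the limit, and SPARC was at least 7.02-fold higher (adjusted p = 1.36e-06, limma). NCALD, the neuronal calcium sensor neurocalcin delta, averaged 562 ± 244 in resistant arrays and 3346 ± 1536 in sensitive arrays (log2 difference -2.32, adjusted p = 0.00145). EPS15, an endocytic protein with EF-hand domains, rose by 0.90 (adjusted p = 0.0480) and LCP1, the leukocyte actin bundler L-plastin, fell by 0.98 (adjusted p = 0.0335). The EPS15 call was lost without any 1 of 8 arrays, all but resistant replicate 2 and sensitive replicate 4, and with arrays scaled to a common median (adjusted p = 0.154) or the lower pseudocount. That of LCP1 was lost without any 1 of 7 arrays, all but resistant replicates 3 and 4 and sensitive replicate 5, with adjusted p of up to 0.111 for EPS15 and 0.0874 for LCP1, and for LCP1 also in the fit with the replicate block.

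Of 12 measured myeloid transcription factors, which include those known to act on S100A8 and S100A9, 0 were called higher and 4 lower, beside 4.94% and 3.46% of all genes. CEBPE was above the limit on all 5 sensitive and no resistant array and was at least 21.6-fold lower in resistant cells. CEBPD fell by 1.63 and GFI1 by 1.78 on the log2 scale (adjusted p = 0.000102 and 0.00211, limma). CEBPA fell by 1.44 (adjusted p = 0.0283), a call lost without sensitive replicate 1, 2 or 5 (adjusted p of up to 0.0747) and in the fit with the replicate block. CEBPB, a regulator of monocytic genes, averaged 9398 ± 3849 in resistant arrays and 8762 ± 3480.0 in sensitive arrays (log2 difference 0.08, adjusted p = 0.937).

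**Figure D5:**
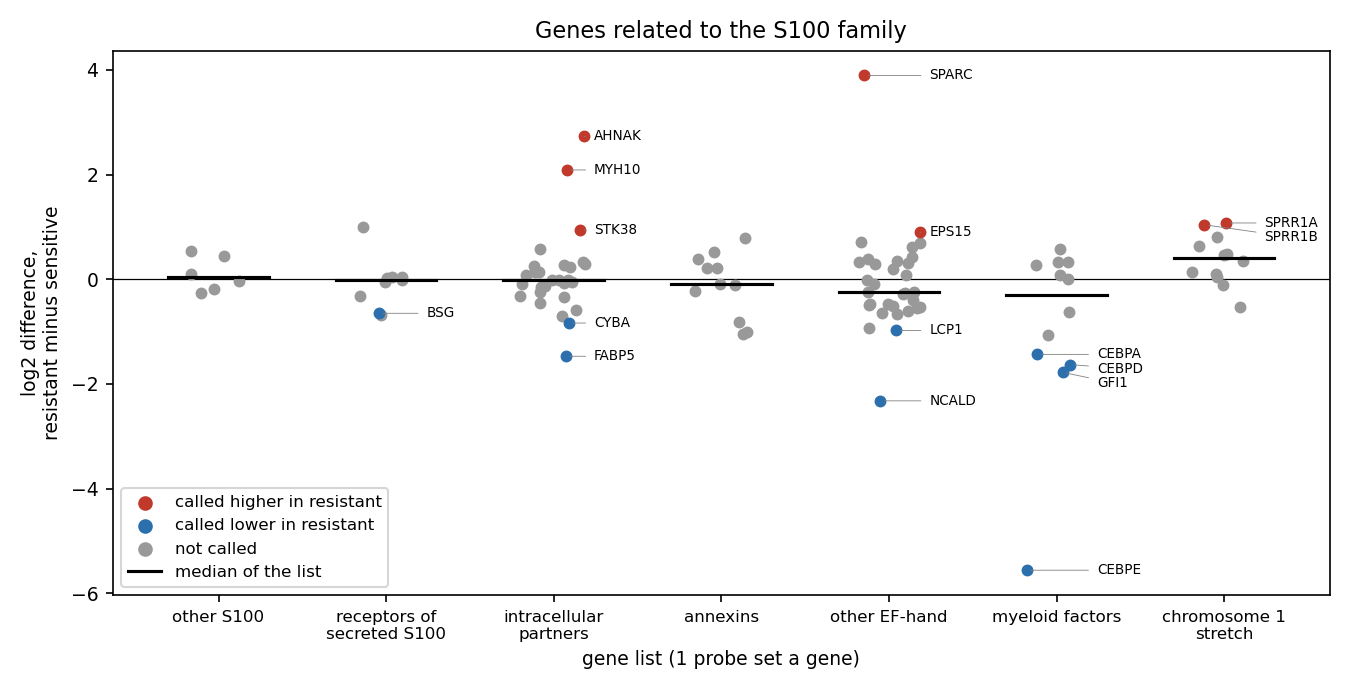
Log2 difference, resistant minus sensitive, of genes in the lists related to the S100 family, 1 probe set a gene, with the median of each list as a bar; red marks genes called higher in resistant arrays, blue lower and grey not called, and called genes are named. The fitted differences of SPARC (3.89), AHNAK (2.73) and CEBPE (-5.56) stand far from 0, each against a group below the limit.

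Over the 10 arrays, the genes whose pattern lay closest to that of a member were found by the root mean square difference of log2 signals, each centred on its own mean, among 10932 probe sets of other genes. Closest to S100A4 (the s set) were ID1, an inhibitor of helix-loop-helix factors, at 0.27, PDLIM1, an adaptor of the actin cytoskeleton, at 0.33, and the vesicle GTPase gene RAB31 at 0.37. Closest to S100P were the amino acid transporter gene SLC1A4 at 0.62, the nucleotide receptor gene P2RY2 at 0.77 and the transcription factor gene ATF5 at 0.78. S100A4 and S100A13 were 0.68 apart. All of these share the difference between the groups, which sets most of the likeness.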

How the data were processed

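Per the submitters' processing notes, MAS5 made the deposited values, which are an intensity (signal) per probe set and array on a linear scale; no MAS5 settings were found there. The 2% trimmed mean lay between 2501.33 and 2501.51, so the deposited arrays share a common level. The precision is limited by the number of arrays, 5 a group, and by the number of separate cultures, which the labels do not give. Groups and replicate numbers came from the sample titles.

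Arrays were scaled to the mean of their trimmed means, and log2(signal + 114.8) was analysed, the pseudocount being the 20th percentile of all signals. Of 12625 probe sets, 67 controls were left out. The difference, resistant minus sensitive, was fitted in R 4.3.3 with limma 3.58.1 (lmFit, eBayes) without covariates, and a probe set was called at a Benjamini-Hochberg adjusted p under 0.05 over 12558. The fit was tested on simulated data. All adjusted p-values are from this fit. Where no array of a group exceeded the limit, "at least N-fold" compares the mean log2 signal of the brighter group with the limits of the dimmer one (or its own signal, if higher), averaged over its arrays.

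Names are those of the platform annotation, with symbols brought up to date through Entrez identifiers (gene table of GRCh38.p14): 10943 had 1 symbol, of which 10934 matched, 545 several and 1070 none. In lists, a gene is represented by the probe set whose mean log2 signal is highest. Members and lists were chosen with earlier results of these data known, and no p was adjusted over a list alone. Named were all members, called genes of each related list (at most 6, or 8 in the chromosome 1 stretch), the 3 largest called genes of each marker list and the 3 closest patterns to the largest rise and fall. Alternatives were quantile normalization, median scaling, pseudocounts at the 10th and 40th percentile, a filter on dim probe sets (above the limit on 3 arrays of a group), a trended robust prior, a replicate block, each array left out, averaged probe sets and exact permutation; leaving out sensitive replicates 4 and 5 was added after the data were seen.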

Additional observations from a re-analysis of the deposited data

Results flagged for a closer look

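Within the 22 groups of 5 arrays given by the 11 S100 probe sets, 5 had 1 array set apart from the other 4 by more than 0.71 of the range of the group, where chance sets about 1 group in 20 apart if values are normally distributed. That was on linear signals. On log2 signals 3 of the 5 remained, and those of S100A4 and S100A12 did not, with gaps of 0.61 and 0.66 of the range. In the r set of S100A4 (its probe set ending in _r_at), resistant replicate 4 had a signal of 1932.5, and the next array 799. In S100P, resistant replicate 3 had 2160.2 and the next array 685. In S100A11, sensitive replicate 3 had 24306 and the next array 12394. The remaining 2 lay below the limit of detection. They were S100A9 on sensitive replicate 1, at 339 with the next array at 75.7, and S100A12, in the probe set with a human identifier, on sensitive replicate 3, at 394 with the next array at 103. The cause was not tested.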

How the results depend on the processing

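S100A4 (the probe set ending in _s_at), S100A13 and S100P kept direction and call under all 19 alternatives each, and no other S100 probe set became called. The log2 difference of S100A4 was 2.80 to 3.58, that of S100A13 2.33 to 3.55 and that of S100P -3.72 to -2.79, with the smallest sizes of S100A4 and S100A13 at the pseudocount of the 40th percentile. Averaging the probe sets of a gene gave 2 higher and 1 lower S100 genes as well. It altered the data of S100A4 and S100A12 only, the genes with 2 probe sets. The average of S100A4 includes its s set, and its log2 difference was 1.82, outside the range above. The sign of 3 probe sets below the limit changed with 1 array left out: the log2 difference ranged from -0.41 to 0.15 for S100A9, from -0.32 to 0.19 for S100A12 in the probe set without a human identifier and from -0.31 to 0.21 in the other. The genes of the related lists, 7 higher and 9 lower in the main fit, were 11 higher and 16 lower with the filter on dim probe sets, which tests fewer probe sets. They were 11 and 17 with the trended prior, 15 lower at the pseudocount of the 40th percentile, and 4 to 7 higher and 6 to 11 lower with 1 array left out. Without sensitive replicates 4 and 5, a setting added after the data were seen, they were 4 higher and 7 lower. Under it CEBPA, SPRR1A, BSG, STK38, LCP1 and EPS15 of these lists were not called, and 1 annexin gene was called lower. The monocytic marker FCGR2A, which is not in these counts, was not called either (adjusted p of 0.0663 to 0.135 for these 6 and FCGR2A). The markers TLR2 and RHAG also lost their calls under it. Median scaling moved the median of all probe sets to -0.07, against 0.03, and changed no S100 call. Whether same replicate numbers pair the arrays was not tested. The correlation of their deviations was 0.00865 to 0.123, over 0.1 in 1 of 5 pairs, against -0.0917 to 0.138 between unlike numbers. Of 10 arrays, 4 correlated best with their own number. With the replicate block 794 of 12558 probe sets were called, against 931, and the calls of S100 probe sets were the same. The block cannot alter a log2 difference, because each number has 1 array of each group, so that only the calls could change. Dim signals limit what can be said of S100A8, S100A9, S100A12 and S100B.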

Other observations

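Markers of other lineages give the setting in which the S100 genes were measured. Of 12 erythroid genes, 3 were called higher by limma and 0 lower, where 4.94% and 3.46% of all genes were. They were KLF1 and BLVRB, with log2 differences of 2.87 and 1.39, and RHAG, at least 1.96-fold higher, a call lost without sensitive replicates 4 and 5 (adjusted p = 0.0589). Of 10 megakaryocytic genes, 1 was called higher, ITGA2B, at 3.40, and 0 lower, beside the same shares. Of 9 fibroblast genes, a cell type in which S100A4 is abundant, 0 were called higher and 1 lower (again beside 4.94% and 3.46%), LUM, at least 2.30-fold, and 5 were not above the limit on any array. Of 10 T lymphoid and 7 B lymphoid genes 0 were called by limma, with 1 T lymphoid gene higher at an unadjusted p under 0.05.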
